A study of Mus musculus with 6 samples.

Results

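The genes described here are 9 mouse genes of iron storage and transport, Fth1, Ftl1, Ftmt, Tfrc, Trf, Slc11a2, Slc40a1, Cp and Ireb2, out of 27365 genes on the array. They were chosen by their symbols in the authors' deposited table, which holds 11 transcript clusters for them among 41345 clusters. A transcript cluster is the set of probes that reads a single gene or transcript region. Primary adipocytes of the mouse inguinal depot, differentiated in culture, received 50 µM kynurenic acid or PBS for 12 h, and RNA was measured on 3 MoGene 2.0 ST arrays of kynurenic acid cells and 3 of PBS cells. Kynurenic acid is a tryptophan breakdown product reported to bind the receptors Gpr35 and Ahr. The labels give no strain, sex, age or genotype of the mice, and they call the replicates technical, so p-values measure only the spread between these arrays. Each gene's value was that of its specific cluster (cross-hybridisation type 1) with the highest mean over the 6 arrays. Values are log2 levels, and changes are kynurenic acid minus PBS.

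Cells take up iron bound to transferrin through the transferrin receptor, move it out of the endosome with a divalent metal transporter, store it inside shells of ferritin and release it through ferroportin. Iron regulatory proteins bind stem-loops, the iron-responsive elements, in several of these transcripts when iron is scarce. Binding blocks translation of the ferritin and ferroportin transcripts and protects the transferrin receptor transcript from decay. Much of the control of ferritin therefore acts on translation, which RNA levels on an array do not record. In fat, iron supply bears on mitochondrial function and adipokine output.

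The sequences upstream of both ferritin genes and of the transferrin receptor gene are shown because a receptor reported to bind kynurenic acid, the aryl hydrocarbon receptor, acts through a DNA element with the core GCGTG, which is found in each of them. They are the 250 bases before the annotated start, from RefSeq on GRCm38.p6, 5′ to 3′ on the strand of the gene. Capitals mark the core GCGTG or its reverse complement CACGC. Positions are chr19:9982396-9982645 on the plus strand for Fth1, chr7:45459887-45460136 on the minus strand for Ftl1 and chr16:32608646-32608895 on the plus strand for Tfrc. For Fth1 and Tfrc, which have 2 annotated starts each, the window nearest to the start of the array cluster was taken.
Fth1: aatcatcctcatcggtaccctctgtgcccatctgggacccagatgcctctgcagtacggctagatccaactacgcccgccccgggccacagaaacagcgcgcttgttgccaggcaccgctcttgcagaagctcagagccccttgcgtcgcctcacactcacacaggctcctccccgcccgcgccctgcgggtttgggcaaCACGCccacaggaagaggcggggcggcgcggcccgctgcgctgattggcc
Ftl1: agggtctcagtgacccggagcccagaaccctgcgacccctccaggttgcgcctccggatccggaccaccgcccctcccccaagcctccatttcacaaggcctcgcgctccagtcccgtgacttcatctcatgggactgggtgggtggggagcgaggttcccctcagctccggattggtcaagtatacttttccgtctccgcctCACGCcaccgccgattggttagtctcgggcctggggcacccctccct
Tfrc: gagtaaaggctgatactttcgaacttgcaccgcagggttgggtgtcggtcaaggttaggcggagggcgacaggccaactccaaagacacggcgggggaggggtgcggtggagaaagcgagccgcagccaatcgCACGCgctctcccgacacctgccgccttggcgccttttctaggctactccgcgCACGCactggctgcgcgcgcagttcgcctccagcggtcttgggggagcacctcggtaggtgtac
The core was searched on both strands and was found 1 time for Fth1, 1 time for Ftl1 and 2 times for Tfrc, each time as CACGC. It occurs in 28.2% of 32841 upstream windows of this length in the same table. The core of the hypoxia-inducible factor element, ACGTG, and that of the antioxidant response element, TGACNNNGC, had no match in these 3 windows, and were found in 16.6% and 10.2% of all windows. No searched motif overlaps another in these windows. RefSeq windows were matched for 5 of the 8 members that were looked up. Those of Cp and Ireb2 are not shown, and their matches are not given. The 3 motifs and the 3 windows shown were chosen after the sequences had been looked at, so their counts test nothing. A match describes the letters and not a bound site.

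None of the 9 genes changed by limma with Benjamini-Hochberg adjustment over all genes (smallest adjusted p = 0.509), and the same test called 0 of 27365 genes, 0%. Of the 9, 8 had a change below 0 and 1 above, with a median of -0.083, beside 12885 genes below 0, 14170 above and a median of 0.0067 over all genes tested. Those signs are not firm: after cyclic loess Fth1 and Cp lay above 0, and after centring the arrays on their medians Slc11a2 lay below 0. At an unadjusted p below 0.05 there was 1 member, Ftl1, on the lower side, against 2653 genes (9.69%) of the whole table, 5% on the lower side and 4.69% on the higher side. Both groups were free of overlap for 2 members, Ftl1 and Ireb2, each lower with kynurenic acid. Over all genes, 7.58% were lower without overlap, 7.14% were higher without overlap and 14.7% were either. At 1 and 2 of 9, neither count is read as a result about these genes. The 95% intervals reached between 0.16 and 0.26 log2 to either side, and over the 9 genes they ran from -0.43 to 0.21.

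**Figure D1:**
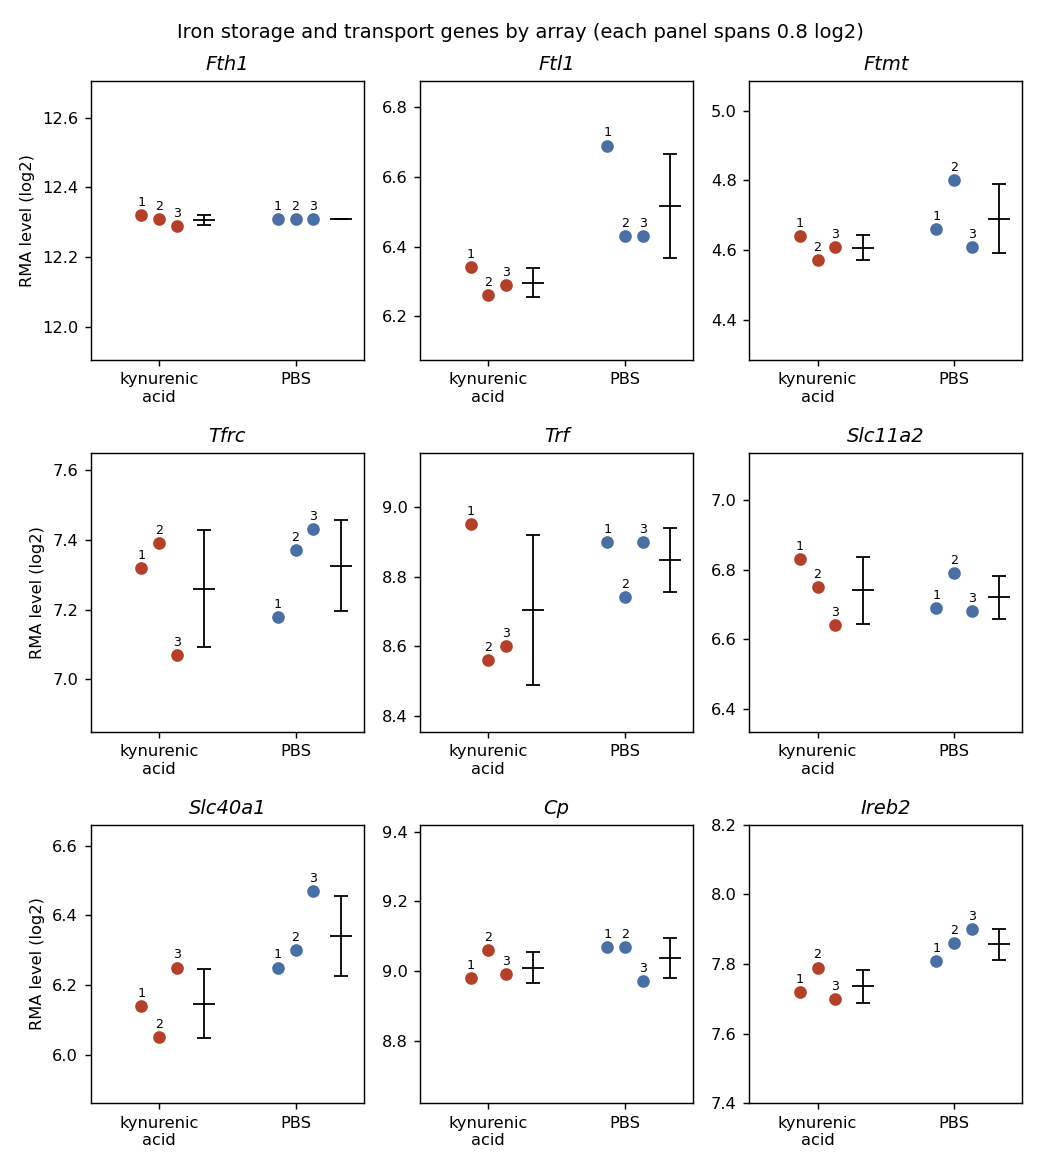
Log2 RMA level of each of the 9 genes in every array, kynurenic acid on the left and PBS on the right. Points carry the replicate number, and bars beside them give mean and SD (n = 3 each). Every panel spans 0.8 log2, so that Fth1, with a range of 0.03 over the 6 arrays, appears flat while Ftl1 and Slc40a1 spread over 0.43 and 0.42.

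**Figure D2:**
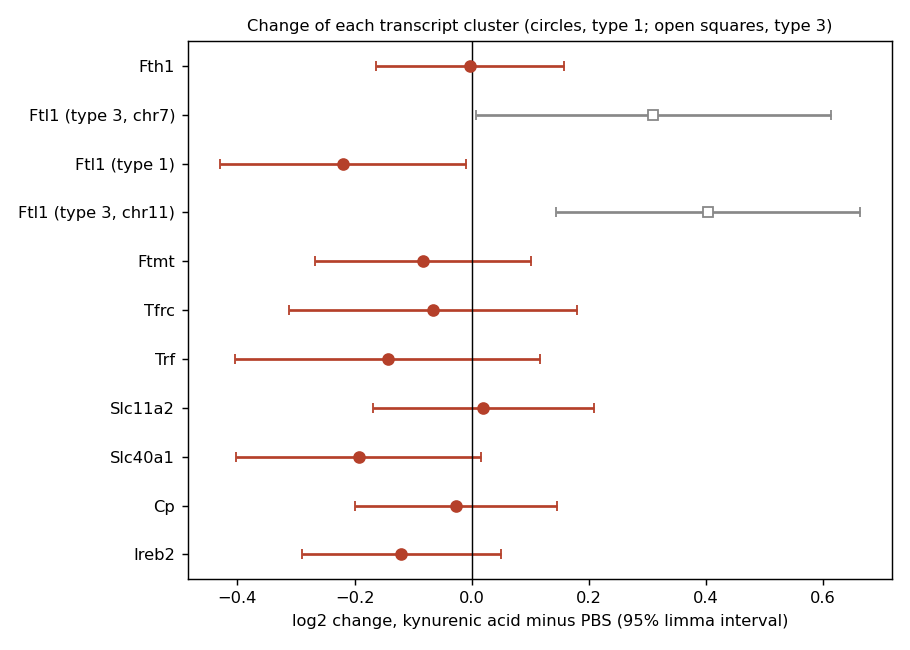
Log2 change, kynurenic acid minus PBS, of each of the 11 transcript clusters with its 95% limma interval. Filled circles are specific clusters and open squares are the 2 Ftl1 clusters whose probes match other transcripts. The open squares lie at 0.31 and 0.40 and the specific Ftl1 cluster at -0.22.

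Fth1, which encodes the ferritin heavy chain that oxidises iron on entry into the shell, has its cluster at chr19:9982703-9985092 and read 12.32, 12.31 and 12.29 in kynurenic acid arrays 1 to 3, against 12.31 in each of the 3 PBS arrays. All 6 arrays lay within 0.03 log2 of each other. The change was -0.0033 with a 95% interval from -0.16 to 0.16 (limma adjusted p = 0.992), and it turned to 0.005 without kynurenic acid replicate 3. The interval is set mostly by the spread that limma shares over all genes. It is wider than the spread of Fth1 itself.

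Ftl1 encodes the ferritin light chain, which aids formation of the iron core. Its specific cluster of 13 probes, on the minus strand at chr7:45457944-45459886 of mm10 and spanning the RefSeq gene, read 6.34, 6.26 and 6.29 in the kynurenic acid arrays. The PBS arrays read 6.69, 6.43 and 6.43. These values lay above the mean of the background probe sets, which match no mouse sequence, in 6 of 6 arrays. They lay above the brightest background probe set in 0 of 6 arrays. All kynurenic acid arrays lay below all PBS arrays, and PBS array 1 stood above the other PBS arrays. The means were 6.30 ± 0.04 with kynurenic acid and 6.52 ± 0.15 with PBS (SD, n = 3 each), a change of -0.22 (SE 0.092, limma adjusted p = 0.509). Without PBS replicate 1 the change was -0.13 (limma adjusted p = 0.753).

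The other clusters under the symbol Ftl1 read the opposite way. Both are of cross-hybridisation type 3, meaning that their probes also match other transcripts. One, of 8 probes, is annotated at chr7:45457944-45458618 on the plus strand, inside the gene but on the strand opposite to it. It read 8.31, 8.40 and 8.70 with kynurenic acid and 8.26, 7.92 and 8.30 with PBS, so that the groups were apart by 0.01 log2. Its change was 0.31 (SE 0.13, limma adjusted p = 0.514 with every cluster as its own row).

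The other, of 25 probes, lies on chromosome 11 at 45829618 to 45830031, inside the RefSeq pseudogene Gm12164 and the long noncoding gene F630206G17Rik. It read 8.64, 8.56 and 8.70 with kynurenic acid and 7.99 to 8.43 with PBS, with no overlap, a change of 0.40 (SE 0.11, adjusted p = 0.469 in the same fit). Within arrays, the cluster on the plus strand of chromosome 7 moved by 0.53 log2 more than the specific cluster, and the cluster on chromosome 11 by 0.62 more. These differences are given as a description and no test of them is reported, since the opposite directions of the clusters were known beforehand. The sign of the change under the symbol Ftl1 differs with the cluster read.

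Ferritin light chain pseudogenes carry array clusters too, under other symbols. Type 3 clusters that overlap Ftl2-ps on chromosome 4 and Ftl1-ps1 on chromosome 13 by at least 90% of their length are annotated as Grik3 and Ccdc127. The Ftl2-ps cluster, of 25 probes, read 11.84, 11.79 and 11.91 with kynurenic acid and 11.79, 11.66 and 11.79 with PBS. The Ftl1-ps1 cluster, of 27 probes, read 11.80, 11.75 and 11.80 with kynurenic acid and 11.73, 11.60 and 11.74 with PBS. Their changes were 0.10 and 0.093, with intervals from -0.081 to 0.28 and from -0.082 to 0.27, and neither passed (adjusted p of 0.696 and 0.707). These clusters were looked up after the disagreement of the Ftl1 clusters was known. Which transcripts their probes read was not tested.

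**Figure D3:**
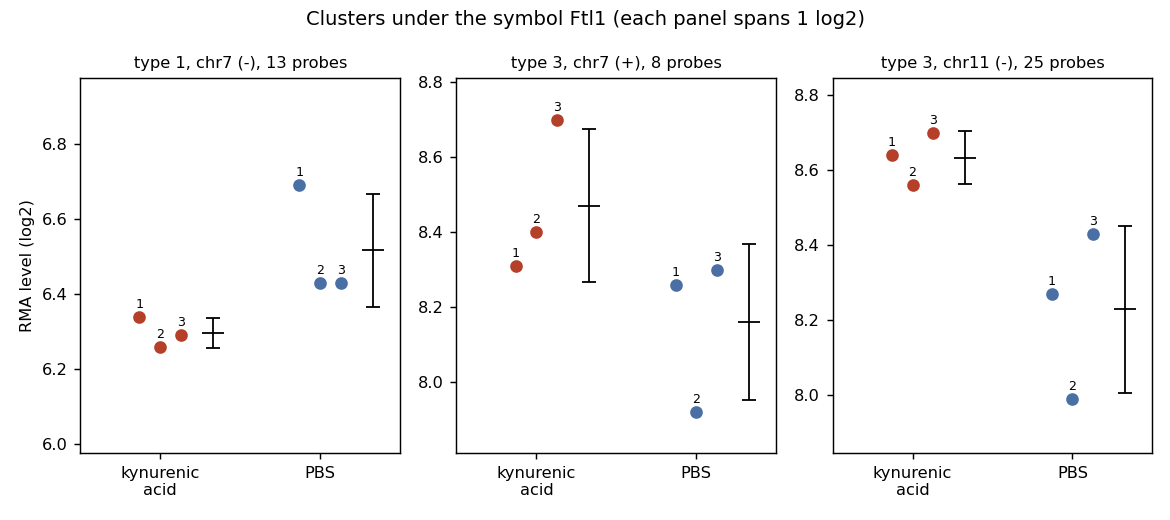
Log2 RMA level of the 3 clusters under the symbol Ftl1 in every array, kynurenic acid left of PBS, with replicate numbers and mean ± SD (n = 3 each). Panels span 1 log2. The specific cluster lies lower with kynurenic acid, and both type 3 clusters lie higher.

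Ftmt, an intronless gene for a ferritin of mitochondria found in few tissues, read 4.64, 4.57 and 4.61 with kynurenic acid and 4.66, 4.80 and 4.61 with PBS. Those values were the nearest to background among the 9 genes, at 0.70 log2 above the mean of the background probe sets in the array with the smallest margin. The groups overlapped, and the change was -0.083 (limma adjusted p = 0.753).

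Iron uptake genes had changes on both sides of 0. Tfrc, the transferrin receptor that internalises iron-loaded transferrin, lies at chr16:32608896-32632794 and read 7.32, 7.39 and 7.07 with kynurenic acid and 7.18, 7.37 and 7.43 with PBS. Kynurenic acid array 3 was the lowest of the 6 and PBS array 3 the highest, and the other arrays were mixed. The change was -0.067 (SE 0.11, 95% interval -0.31 to 0.18, limma adjusted p = 0.859). With kynurenic acid replicate 3 left out it turned to 0.028. Tfrc is abundant in dividing cells, and 10 of 10 measured markers of dividing cells had changes below 0, with a median of -0.32. Over all 27365 genes, 12885 had changes below 0. At a limma unadjusted p below 0.05 there were 6 of the markers, beside 5% of all genes on the lower side. Bub1, which is among those 6, read 3.53, 3.17 and 3.38 with kynurenic acid. The means of the background probe sets in those arrays were higher, at 3.88, 3.76 and 3.91. With PBS it read 3.83, 3.59 and 3.82, close to background means of 3.76, 3.58 and 3.75. Array means of that list, as deviations from the mean of all 6 arrays, were -0.17 to -0.11 with kynurenic acid and 0.098 to 0.17 with PBS. Their part in the value of Tfrc was not tested.

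Trf, the gene of the plasma iron carrier transferrin, which adipocytes also make, read 8.95, 8.56 and 8.60 with kynurenic acid and 8.90, 8.74 and 8.90 with PBS. Kynurenic acid array 1 was the highest of all 6, and the other kynurenic acid arrays were the lowest. Its change was -0.14 (SE 0.11, limma adjusted p = 0.694). With kynurenic acid replicate 1 left out the change was -0.27 (limma adjusted p = 0.640). With replicate 2 or 3 of that group left out it was -0.072 or -0.092. The Trf cluster, chr9:103204001-103230444 on the minus strand, runs past the RefSeq gene at 103208876 to 103230286.

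Slc11a2 encodes the divalent metal transporter DMT1, which carries ferrous iron across the endosomal membrane. Its cluster on chromosome 15 spans 100387898 to 100425072, slightly more than the RefSeq gene. It read 6.83, 6.75 and 6.64 with kynurenic acid and 6.69, 6.79 and 6.68 with PBS. The PBS arrays lay within the range of the kynurenic acid arrays. The change of 0.02 had an interval from -0.17 to 0.21 (limma adjusted p = 0.954) and turned to -0.025 without kynurenic acid replicate 1.

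On the side of release, Slc40a1 encodes ferroportin, the iron exporter that hepcidin removes from the membrane. It lies on chromosome 1, in a cluster at 45908070 to 45925594, and read 6.14, 6.05 and 6.25 with kynurenic acid and 6.25, 6.30 and 6.47 with PBS. The groups met at 6.25 and overlapped in that value alone. The change was -0.19 (SE 0.092, 95% interval -0.40 to 0.014, limma adjusted p = 0.529), and without PBS replicate 3 it was -0.13.

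Ferroportin is also abundant in macrophages, which recycle iron from red cells. All 10 measured macrophage markers lay above background in the culture, with Cd68 at 9.83, 9.76 and 9.71 with kynurenic acid and 9.85, 9.78 and 9.69 with PBS. Their median change was -0.12, with 8 below 0 and 2 above. Leaving out kynurenic acid replicate 3 gave -0.021, and leaving out replicate 2 of that group gave -0.076. The median was -0.052 without PBS replicate 1, -0.082 without PBS replicate 2 and -0.22 without PBS replicate 3. Array means of the list ran from -0.13 to 0.086 with kynurenic acid and from -0.13 to 0.18 with PBS. Their part in the value of Slc40a1 was not tested. In bulk RNA, fewer cells of a type and less RNA per cell cannot be told apart.

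Cp, ceruloplasmin, a copper enzyme that oxidises exported iron so that transferrin can bind it, has its cluster at chr3:19957054-20009145 and read 8.98, 9.06 and 8.99 with kynurenic acid and 9.07, 9.07 and 8.97 with PBS. Its 6 values lay within 0.10 log2, and the change was -0.027 with an interval from -0.20 to 0.14 (limma adjusted p = 0.925).

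Ireb2 encodes iron regulatory protein 2, an RNA-binding protein that acts on the iron-responsive elements. Its cluster of 40 probes, on chromosome 9 at 54863755 to 54912534, read 7.72, 7.79 and 7.70 with kynurenic acid and 7.81, 7.86 and 7.90 with PBS. The groups did not overlap, and 0.02 log2 separated them. The change was -0.12 (SE 0.075, 95% interval -0.29 to 0.049, limma adjusted p = 0.615). The authors' deposited table gives a signed fold of -1.09 for it, with a q of 0.522. In the authors' deposited table, the chromosome 11 cluster under Ftl1 had a signed fold of 1.31 and the same q, the lowest among the 11 clusters.

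The other genes of iron handling were taken as 7 lists with 79 measured genes in all. None changed by limma over all genes (smallest adjusted p = 0.472), and 7 of them, 8.86%, had an unadjusted p below 0.05, beside 9.69% of all genes. Of the 79, 33 had a change above 0 and 44 below, with a median of -0.01. The lists were written with earlier results of these data known. From each list the values of up to 2 genes with the largest change above background are given.

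Genes of uptake, reduction and release numbered 13. At an unadjusted p below 0.05 stood Lrp1 on the higher side and Steap1 on the lower. Steap1, of a family of membrane metalloreductases, read 5.51 ± 0.099 with kynurenic acid and 5.73 ± 0.032 with PBS (SD, n = 3 each; limma adjusted p = 0.478). Lrp1, a large endocytic receptor that takes up haem bound to hemopexin, read 9.37 ± 0.06 with kynurenic acid and 9.18 ± 0.075 with PBS (SD, n = 3 each; limma adjusted p = 0.509). In both genes the groups were free of overlap.

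The list of iron sensing and the hepcidin pathway held 10 measured genes, none at an unadjusted p below 0.05. Its largest changes were 0.20 for Hfe2, the hemojuvelin co-receptor, and -0.16 for Fbxl5, the iron-sensing ubiquitin ligase subunit that marks iron regulatory protein 2 for breakdown. Hfe2 read low, at 4.41, 4.28 and 4.69 with kynurenic acid and 4.27, 4.18 and 4.33 with PBS, with overlap (limma adjusted p = 0.578). Fbxl5 read 6.66, 6.79 and 6.68 with kynurenic acid and 6.86, 6.85 and 6.89 with PBS, with no overlap (limma adjusted p = 0.534). Among the 5 genes of ferritin loading and turnover, none reached an unadjusted p below 0.05. Ncoa4, the cargo receptor that delivers ferritin to lysosomes, had a change of -0.20 (adjusted p = 0.541), and Atg5, needed to form autophagosomes, had -0.16.

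Haem genes numbered 18, of which Uros, an enzyme of haem synthesis, was lower at an unadjusted p under 0.05. It read 5.44, 5.59 and 5.65 with kynurenic acid and 5.84, 5.74 and 5.83 with PBS, a change of -0.24 (limma adjusted p = 0.475). Of 22 genes of mitochondrial iron and iron-sulphur cluster assembly, Ciao1 was among those on the lower side at an unadjusted p under 0.05, and the list had a median of -0.028, with 7 changes above 0 and 14 below. Ciao1, a scaffold of cytosolic iron-sulphur protein assembly, read 7.21, 7.46 and 7.24 with kynurenic acid and 7.71, 7.64 and 7.53 with PBS, a change of -0.32 (SE 0.095, limma adjusted p = 0.472). That was the largest change among the 79 genes.

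Of 3 further transcripts with an iron-responsive element, Epas1, which encodes the hypoxia-inducible factor HIF-2alpha, read 7.18 ± 0.12 with kynurenic acid and 6.94 ± 0.14 with PBS (SD, n = 3 each), a change of 0.24 (limma adjusted p = 0.506). Alas2 of this list also belongs to the haem list. Among 9 genes of ferroptosis and antioxidant defence, Nqo1, a quinone reductase, had 0.24 (limma adjusted p = 0.499). Slc7a11, which imports cystine for glutathione synthesis, had -0.21 (limma adjusted p = 0.556), and its groups were apart by 0.02 log2. It read 4.34, 4.41 and 4.02 with kynurenic acid and 4.48, 4.43 and 4.49 with PBS. The lowest value, in kynurenic acid array 3, was close to the background mean of that array, 3.91. None of these values passed the test over all genes.

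**Figure D4:**
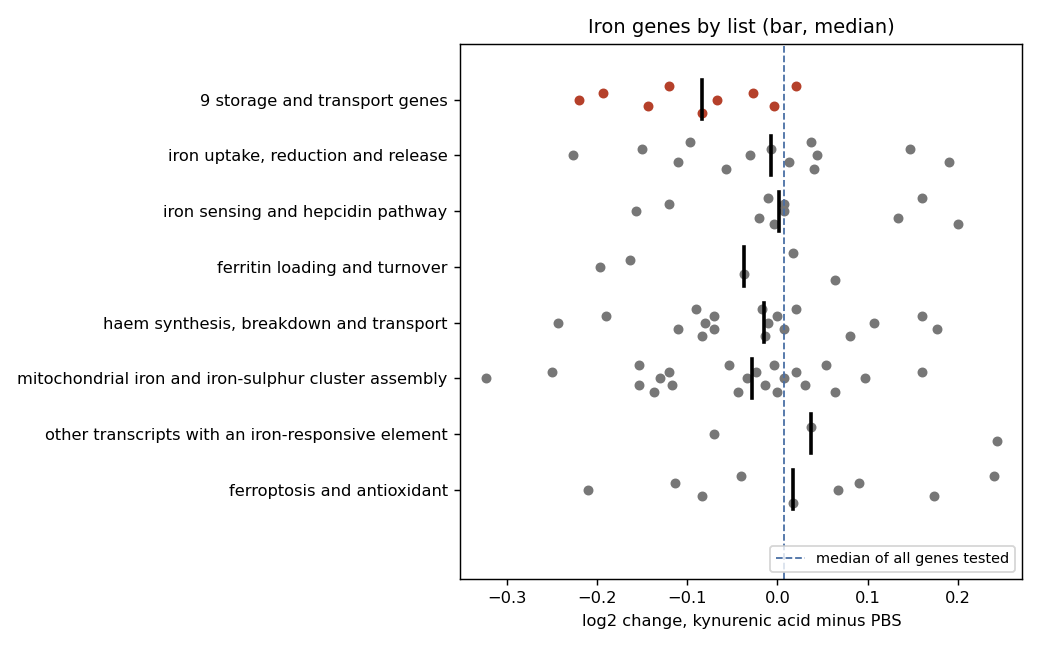
Log2 change, kynurenic acid minus PBS, of each of the 9 storage and transport genes and of 79 other iron genes in 7 lists. Each list has a point per gene and a bar at its median. Alas2 is drawn both among the haem genes and among the transcripts with an iron-responsive element. The dashed line marks the median of all 27365 genes, 0.0067. The changes of the 9 genes run from -0.22 to 0.02, where those of Fth1 and Cp turn above 0 after cyclic loess and that of Slc11a2 below 0 after median centring.

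Genes with the pattern most like Tfrc over the 6 arrays, by Pearson's r among 13055 genes, were Cd80 (0.986), 4930579K21 (0.985) and Ncoa7 (0.984). For Fth1 they were Cspg5 (0.991), Acvr2a (0.983) and Ipmk (0.982). These correlations come from 6 arrays that share 2 conditions, and were picked as the highest of many. The values of Fth1 span only 0.03 log2 at a rounding of 2 decimals, so its likeness rests mostly on kynurenic acid arrays 1 and 3.

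Of the whole series, array medians lay between 3.93 and 3.98 log2. Means of the antigenomic probe sets, which match no mouse sequence and serve as background, lay between 3.76 and 3.91 in the kynurenic acid arrays and between 3.58 and 3.76 in the PBS arrays. All 9 genes read above that mean in 6 of 6 arrays, and 4 of them, Fth1, Trf, Cp and Ireb2, also read above the brightest background probe set of every array. A marker was counted as above background if its mean in the group where it was higher passed the background mean of that group. Of adipocyte markers, 10 of 10 measured lay above background. Adipoq read 9.54 to 9.60 with kynurenic acid and 9.59 to 9.70 with PBS. Above background also lay 9 of 9 markers of preadipocytes and fibroblasts and 10 of 10 of macrophages. The same held for 10 of 10 markers of dividing cells and 6 of 9 of endothelial cells. In their lower group, some of these markers did not pass the background mean. These were Bub1 and Lum with kynurenic acid, at means of 3.36 and 3.77, and Esam with PBS, at 3.62. A reading above background therefore does not tell these cell types apart. Of 7 measured erythroid markers 1 lay above background. The medians of the marker lists were -0.047 for adipocytes, -0.08 for preadipocytes and fibroblasts, 0.13 for endothelial cells and 0.057 for erythroid cells.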

How the data were processed

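RNA was read on 6 arrays, 3 per group as their titles give it. The authors computed the log2 values with RMA (background correction, quantile normalization, median polish), per the file headers. Affymetrix Expression Console 1.41 is named per the submitters' processing notes. RMA gives all arrays a common distribution, so a shift of most transcripts would not be seen. Annotation was NetAffx build 34 on mm10, per the file headers. The authors' deposited table also holds mean intensity per group, a signed fold score, p-values of Student's t-test and q-values by an unstated method. The 2 deposited tables agreed in every log2 value (largest difference 0.0).

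Each of 27365 symbols took its type 1 cluster with the highest mean, or, for 1751 symbols with none, the cluster with the highest mean of any type. The fit was limma 3.58.1 in R 4.3.3 without covariates, two-sided, with Benjamini-Hochberg adjustment over all genes at 0.05, and was tested on simulated data. Clusters were fitted in 29726 rows for single cluster values. Named genes were the 9 members, the 2 largest changes above background per list and the 3 genes most like Tfrc and Fth1, leaving out predicted, small RNA, Olfr and Vmn genes; some genes this rule names are not reported here. The members and lists were chosen with earlier results of these data known. Deviations of same-numbered arrays from their group means correlated at 0.037, 0.065 and 0.093, and those of other pairs between -0.07 and 0.004. No label says that the numbers pair the arrays, so the replicate number was used only as a block in an alternative fit. Alternatives were the replicate block, median centring, cyclic loess, another cluster rule, a filter at the 40th percentile, the intensity trend, a t-test and leaving out each array.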

Additional observations from a re-analysis of the deposited data

How the results depend on the processing

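In each of 13 alternatives limma or the t-test called 0 genes over the whole table and 0 of the 9 members; genes at an unadjusted p below 0.05 numbered from 1910 to 3570 with an array left out, 2156 by the t-test and 2653 in the reported fit. With every cluster as its own row, 0 of 29726 passed. Members at an unadjusted p below 0.05 numbered 1 in the reported fit and 2 after centring the arrays on their medians. They numbered 0 after cyclic loess and 0 to 1 with an array left out. The single member was not always Ftl1. By the t-test it was Ireb2 (unadjusted p = 0.033). Without kynurenic acid replicate 1 it was Trf (limma unadjusted p = 0.021), and without replicate 3 of that group Slc40a1 (limma unadjusted p = 0.039). With the replicate number as a block there were 2, Ftl1 and Slc40a1, with limma adjusted p of 0.443 and 0.467, and no call changed. The block gave 2893 such genes overall. The numbers do not pair the arrays by the labels. Deviations from the group means correlated most for same-numbered arrays, but weakly, at 0.037, 0.065 and 0.093.

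Changes turned sign for Fth1 after cyclic loess (0.0096) and without kynurenic acid replicate 3 (-0.01 to 0.005 with arrays left out), and for Cp after cyclic loess (0.019). Slc11a2 turned after median centring (-0.017) and ran from -0.025 to 0.07 with arrays left out, and Tfrc from -0.14 to 0.028. Ftl1 turned to 0.40 with the brightest cluster of any type, by the choice of another cluster. Arrays left out gave -0.26 to -0.13 for Ftl1, -0.27 to -0.072 for Trf, -0.24 to -0.13 for Slc40a1, -0.12 to -0.028 for Ftmt and -0.15 to -0.098 for Ireb2.

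After cyclic loess list medians were 0.012 for ferritin turnover, 0.032 for haem and 0.067 for ferroptosis genes, and after median centring -0.052 for haem. The list of other transcripts with an iron-responsive element had 0.14 after the filter, which left 2 genes. With arrays left out, medians ran from -0.078 to 0.017 for ferritin turnover, from -0.059 to -0.014 for haem and from -0.015 to 0.065 for ferroptosis genes. Medians of marker lists moved after median centring to -0.083 (adipocyte), 0.093 (endothelial) and -0.36 (dividing cells), and after cyclic loess to -0.022 (adipocyte) and 0.092 (endothelial); the filter gave 0.043 (endothelial). With arrays left out they ran from -0.069 to -0.032 (adipocyte), 0.068 to 0.14 (endothelial), -0.37 to -0.28 (dividing cells), 0.01 to 0.14 (erythroid), -0.22 to -0.021 (macrophage) and -0.14 to -0.03 (preadipocyte and fibroblast). Apart from the choice of cluster for Ftl1 and the smaller number of genes after the filter, the cause was not tested. The number of arrays limits the precision.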
